A study of Mus musculus with 2 samples.

Results

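The genes that encode the proteins of the cytoplasmic ribosome were examined for GATA4 occupancy in adult mouse liver. Members were the protein-coding genes of GENCODE M1 whose symbol is Rpl or Rps followed by a digit, or Rpsa, Rplp0, Rplp1 or Rplp2, without the S6 kinase genes of the Rps6ka, Rps6kb, Rps6kc and Rps6kl names. This gave 138 of 22380 protein-coding genes. Of these, 45 encode proteins of the large subunit and 31 proteins of the small subunit, and these 76 are called the core genes below. A further 9 are paralogues or genes named after a ribosomal protein, and 53 carry a symbol with -ps, the suffix of pseudogenes, although the annotation lists them as protein-coding. All 53 are single-exon copies, with a median length of 483 bp.

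The study used chromatin immunoprecipitation followed by sequencing (ChIP-seq) to map the transcription factor GATA4 in the liver of C57BL/6 x Sv129 mice aged 2 to 3 months. The labels give 1 ChIP sample, made with the GATA4 C-20 antibody, and 1 sample of input DNA, for which no antibody was used. Whole liver, which holds several cell types, was the starting material, and the cell type behind a site cannot be read from the peak lists. No treatment or altered allele is given for either sample.

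Each file holds a single list of peaks for both replicates together, called against input, which leaves no replicate error for any value below, and read depth at each site is unknown. The common list holds 4409 occupied sites (OS) that were found by both peak callers, the MACS2 list 5867 peaks and the SPP list 4811. Every peak carries the same score of 1000, and no strength can be read from it. A peak's number in its list is given below as a name and, in places, as a position in the list. What the numbering follows is not stated, and the number is no measure of strength.

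Ribosomal proteins bind to the ribosomal RNAs and stabilise their fold, and every cell needs all of them in near equal amounts. Their genes are transcribed at high rates in nearly all tissues, usually from GC-rich promoters that start transcription within a short tract of pyrimidines. For this reason they serve as reference genes for housekeeping promoters, while GATA4 is known as a factor of heart, gut and liver genes. GATA factors bind the motif WGATAR, which is read as AGATAA or AGATAG and, with T in the first place, as TGATAA or TGATAG, on either strand.

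The OS at the promoters of large subunit genes are the sites on which most of the results rest, and the sequences of 6 of the 7 are shown here. That of Rpl10a is not shown, as most of it lies in an exon. Each was read from mm9, 5′ to 3′ on the strand of the gene, with WGATAR in capitals, and only the part outside annotated exons is given where an OS reaches into one.
Rpl4 OS, chr9:64020989-64021178, plus strand: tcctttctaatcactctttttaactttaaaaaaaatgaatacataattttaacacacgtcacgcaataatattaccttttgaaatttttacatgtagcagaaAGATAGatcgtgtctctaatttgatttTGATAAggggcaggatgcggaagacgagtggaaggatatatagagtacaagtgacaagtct
Rpl37 OS, upstream part, chr15:5066487-5066612, plus strand: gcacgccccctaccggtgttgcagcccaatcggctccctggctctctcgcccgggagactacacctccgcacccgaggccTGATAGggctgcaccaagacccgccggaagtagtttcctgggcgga
Rpl8 OS, upstream part, chr15:76734415-76734500, plus strand: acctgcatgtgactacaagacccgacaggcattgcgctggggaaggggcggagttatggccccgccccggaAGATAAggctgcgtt
Rpl19 OS, chr11:97887713-97887798, plus strand: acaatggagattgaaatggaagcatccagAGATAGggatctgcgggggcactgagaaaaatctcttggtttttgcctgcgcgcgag
Rpl13 OS, upstream part, chr8:125626212-125626249, plus strand: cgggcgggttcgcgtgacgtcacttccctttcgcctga
Rpl3 OS, 30 bases around its WGATAR, chr15:79913763-79913792, minus strand: cctggtcgctctCTATCTgcggcgtgtggc
The Rpl13 stretch is shown because it holds no WGATAR, and the Rpl3 site lies in an exon.

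Sites of the small subunit and retrocopy groups lay farther from the genes. The OS nearest to Rps6 and the OS nearest to Rpl27a-ps1 are printed for comparison, together with the motif of the upstream OS of Rpl26.
Rps6 OS, chr4:86493205-86493363, minus strand: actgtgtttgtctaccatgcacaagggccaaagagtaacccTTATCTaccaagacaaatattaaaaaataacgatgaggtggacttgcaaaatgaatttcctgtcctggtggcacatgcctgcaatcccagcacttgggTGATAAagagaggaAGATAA
Rpl27a-ps1 OS, chr10:60776639-60776755, plus strand: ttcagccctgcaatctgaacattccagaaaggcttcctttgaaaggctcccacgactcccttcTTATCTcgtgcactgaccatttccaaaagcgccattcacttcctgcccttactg
Rpl26 OS, 30 bases around its WGATAR, chr11:68712418-68712447, plus strand: cagacactggcgAGATAAgcagaccataac

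GATA4 OS were found near few of these genes. A common OS had its midpoint in the gene body or within 10 kb of it in 16 of the 138 members (11.6%), while the share over all protein-coding genes was 13.7%. The MACS2 list reached 24 members (17.4%) beside 17.3% of all protein-coding genes. The common list holds only sites found by both callers, and all 16 members with a common OS were among these 24. The remaining 114 members had no peak of either list. Both shares over all members therefore lay near the background.

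The groups differed within this total, and counting the subunits apart was chosen after seeing the data. A common OS lay in the body or within 10 kb of 12 of the 45 large subunit genes (26.7%), of 2 of the 31 small subunit genes (6.45%), of 2 of the 53 retrocopies (3.77%) and of 0 of the 9 paralogues. In the MACS2 list the counts were 15 (33.3%), 5 (16.1%), 4 (7.55%) and 0. Ribosomal protein genes are short, with a median body of 3238 bp for the core genes against 15420 bp for all protein-coding genes, which makes their windows smaller. Among the 8874 protein-coding genes with bodies of up to 10 kb, 7.35% had a common OS and 9.79% a MACS2 peak in the same window. Among the 8889 genes with a CpG-rich promoter, a class that holds 58 of the 76 core genes, the shares were 19.0% and 24.4%. The lists of genes overlap with these comparison classes, and no test of genes against genes was made, since genes of one genome are not replicates.

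At the promoter itself, all members with a common OS belonged to the large subunit. In 7 of its 45 genes (15.6%) an OS midpoint lay within 1 kb of an annotated transcription start site (TSS), namely Rpl3, Rpl4, Rpl8, Rpl10a, Rpl13, Rpl19 and Rpl37. None of the 31 small subunit genes, 9 paralogues or 53 retrocopies had one. The share was 3.44% of all protein-coding genes, 5.05% of those with a CpG-rich promoter and 2.45% of those with bodies of up to 10 kb. This window has the same length around every TSS, and gene length does not enter it. Within 10 kb of a TSS the count was 14 members (10.1%), beside 9.23% of all protein-coding genes.

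**Figure D1:**
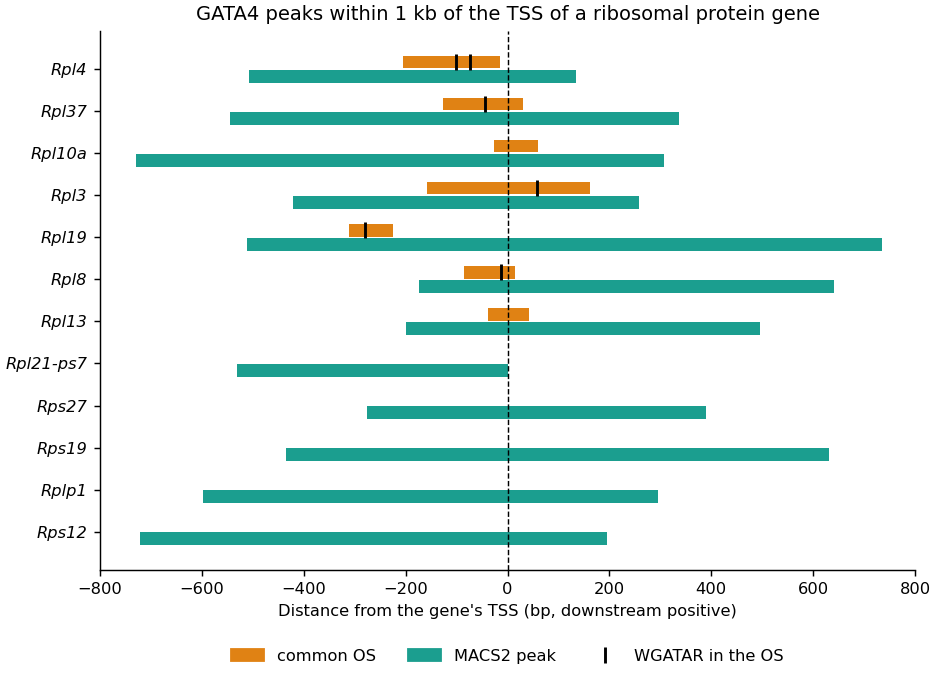
Peaks of the common list (orange) and of the MACS2 list (green) whose midpoint lies within 1 kb of the TSS of a ribosomal protein gene, drawn to scale against the distance from that TSS in bp, with each gene turned so that transcription runs to the right. Black marks show WGATAR inside the common OS. The 7 genes with a common OS are all of the large subunit, and 5 of these OS carry the motif.

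The proteins of these 7 genes sit in different places of the large subunit. Rpl3 reaches towards the peptidyl transferase centre, Rpl4 lines the exit tunnel for the nascent chain, and Rpl10a forms the mobile stalk beside the exit site for tRNA. Rpl8 is one of the most conserved ribosomal proteins and binds near the catalytic centre. Rpl13, Rpl19 and Rpl37 belong to the proteins that archaea and eukaryotes share or that eukaryotes alone carry.

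Rpl4 had the first of these OS in the common list (number 1398), 190 bp wide and centred 111 bp upstream of the TSS. It holds 2 WGATAR motifs and had the lowest GC content of the 7, at 32.1%. The OS lies between Rpl4 and Zwilch, a gene for a kinetochore protein, and the midpoint of the overlapping MACS2 peak (number 3707) lay 95 bp from the Zwilch TSS and 188 bp from that of Rpl4. The peak lists cannot assign such a site to one of the 2 genes.

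At Rpl37 the OS (number 2318, 156 bp) was centred 49 bp upstream of the TSS with 1 WGATAR. The MACS2 peak over it was number 1451, the earliest in that list among those at member promoters. The OS of Rpl8 (number 3602, 100 bp) was centred 37 bp upstream of the TSS. Its single AGATAA overlaps by 2 bases with CCGGAAG, the core of the binding motif of ETS factors such as GABPA, which is frequent at ribosomal protein promoters. The Rpl37 OS also contains 1 CCGGAAG, which shares no base with its TGATAG.

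The OS of Rpl19 (number 3591, 86 bp) was the farthest upstream of the 7, centred 269 bp before the nearest annotated TSS, and holds 1 AGATAG. The OS of Rpl3 (number 3009) was 320 bp wide and centred 2 bp downstream of the TSS, so that its 1 motif is in transcribed sequence. Rpl10a (number 2947, 86 bp, centred 16 bp downstream of its nearest annotated TSS) and Rpl13 (number 3940, 80 bp, centred 1 bp downstream) had OS without WGATAR. The nearest annotated TSS at Rpl10a lies inside the gene body, downstream of the first base of the gene. The Rpl10a OS contained 2 shorter matches, WGATA or GATAR, and the Rpl13 OS none. The Rpl13 OS contained 2 matches to TGACGT, one on each strand in the overlapping palindrome of the cAMP response element, which is known as a site of CREB and ATF factors.

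All 7 OS overlapped a MACS2 peak, which follows from the common list holding only sites found by both callers. Those MACS2 peaks were between 642 and 1248 bp wide. The MACS2 list added promoter peaks at 5 members, Rplp1, Rps12, Rps19, Rps27 and Rpl21-ps7. This made 12 members (8.70%) with a MACS2 midpoint within 1 kb of a TSS, beside 5.19% of all protein-coding genes, 8.02% of those with a CpG-rich promoter and 3.5% of those with bodies of up to 10 kb. By group these were 8 of 45 large subunit genes (17.8%), 3 of 31 small subunit genes (9.68%) and 1 of 53 retrocopies (1.89%). The 3 small subunit genes thus enter with MACS2 alone, at numbers 4656 (Rps27), 5095 (Rps19) and 5810 (Rps12) of 5867.

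Rps19 is the gene most often mutated in Diamond-Blackfan anaemia, a failure of red cell production. Its MACS2 peak was 1066 bp wide, centred 98 bp downstream of the TSS, and held no WGATAR. The peak at Rps12 (918 bp, centred 263 bp upstream) held none either, and that at Rps27 (666 bp, centred 57 bp downstream) held 1. Rplp1 encodes an acidic protein of the stalk that recruits elongation factors, and its peak (number 5399, 893 bp, centred 151 bp upstream) held 1. The nearest common OS to these 4 TSS lay between 15552 and 311790 bp away.

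**Figure D2:**
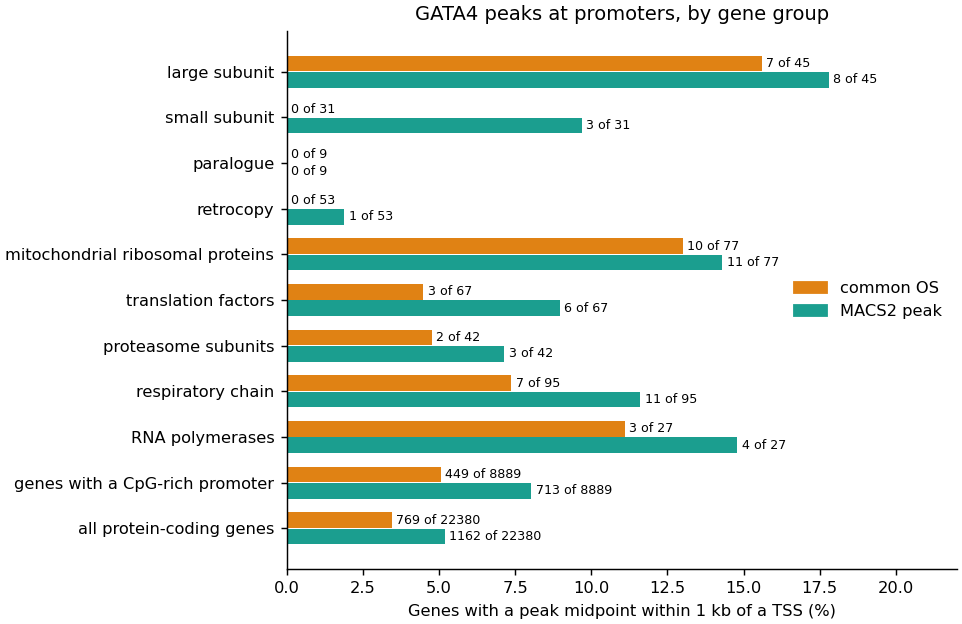
Percent of genes with a peak midpoint within 1 kb of a TSS, by gene group, for the common list (orange) and the MACS2 list (green), with the number of genes at the end of each bar. Large subunit genes stood at 15.6% and 17.8%, small subunit genes at 0 and 9.68%, and all protein-coding genes at 3.44% and 5.19%.

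Other housekeeping groups were taken by the stem of the gene symbol and counted the same way. Such a list can include genes that share the stem without being subunits or factors themselves. Of 77 genes for mitochondrial ribosomal proteins, which build the ribosome of that organelle, 10 had a common OS within 1 kb of a TSS (13.0%) and 11 a MACS2 peak (14.3%). Mrps17, with OS number 186, Mrpl11 and Mrps14 came first in the list. Of 27 RNA polymerase subunit genes 3 (11.1%) had a common OS, at Polr3gl, Polr2e and Polr1c, and 4 a MACS2 peak. Of 95 genes with symbols of the respiratory chain 7 (7.37%) had one, Cox16 and Ndufa9 among them, and 11 a MACS2 peak.

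Of 67 translation factor genes 3 (4.48%), Eif3d, Eif4g3 and Eif3j, had a promoter OS, and 6 a MACS2 peak. Of 42 proteasome subunit genes 2 (4.76%), Psmc6 and Psmb2, had one, and 3 a MACS2 peak. In the wider window of the gene body and 10 kb, a common OS was present at 16 genes of the mitochondrial ribosome (20.8%), 6 of the RNA polymerases (22.2%), 15 of the respiratory chain (15.8%), 7 of the translation factors (10.4%) and 2 of the proteasome (4.76%). The share of large subunit genes (26.7%) was above each of these values and that of small subunit genes (6.45%) above the proteasome alone. With counts this small, 1 or 2 genes more or fewer change the order.

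The lowest OS number in several of these lists was below any at a ribosomal protein promoter. Eif3d, a subunit of an initiation factor, had OS number 59 and Polr3gl number 70, whereas the lowest at a member promoter was number 1398. The lists together hold more promoter OS than the members do, but they also hold more genes. The counts are therefore to be read by the share of each list, given above. What the numbering follows is not stated, so this order says nothing about strength.

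In total 17 common OS lay in the body or within 10 kb of a member, 1 each for 15 members and 2 for Rpl26. Besides the 7 at promoters, 10 lay 2589 to 13542 bp from the nearest TSS of the member. For 11 of the 17 the nearest protein-coding TSS was that of the member itself, and for the other 6 a neighbour's TSS was nearer. Of those 6, 2 were within 1 kb of the neighbour's TSS.

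Rpl26 encodes a protein that also binds the p53 mRNA after DNA damage. It had an OS 2589 bp upstream of its TSS (number 3626, 320 bp, 1 WGATAR) that was nearer to it than to any other gene. Its other OS (number 1723, 183 bp), 8995 bp upstream, lay in an exon of Rnf222, whose TSS was 4035 bp away.

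The OS of Rpl14 (number 1791, 163 bp, 2 WGATAR) was 28 bp from the TSS of 5830454E08Rik and 5801 bp from that of Rpl14. The OS of Rpl29 (number 2379, 162 bp, no WGATAR) was 13 bp from the TSS of Acy1, which encodes an aminoacylase, and 8684 bp from that of Rpl29. Both lie at the promoters of other genes that fall in the window. The OS of Rpl7 (number 1810, 3 WGATAR) lay 9015 bp upstream in an intron of Rdh10, the gene of a retinol dehydrogenase.

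Of the 3 stalk genes, Rplp0 had a site in both lists. Rplp0, whose product anchors the stalk to the ribosome, had an OS (number 4041, 320 bp, 1 WGATAR) 9438 bp beyond its gene body, in an intron of Gcn1l1, and an overlapping MACS2 peak (number 2678). Rplp1 had the MACS2 promoter peak given above. Rplp2 had 2 MACS2 peaks in its window and no common OS. The first (number 2713), which overlaps the common OS number 3460 that fell just outside the window, lay 170 bp from the TSS of Slc25a22, a mitochondrial glutamate carrier, and the other (number 5298) 462 bp from that of Pnpla2, the main triglyceride lipase of fat cells. Rpl17 had a MACS2 peak (number 3173, 332 bp, 1 WGATAR) 869 bp beyond its gene body, with BC031181 as the gene of the nearest TSS, and no common OS.

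The common OS of the small subunit were those of Rps6 and Rps7, and neither was at the promoter. Rps6 encodes the main ribosomal substrate of the S6 kinases. Its OS (number 2073, 159 bp) was 9952 bp from its TSS, in an intron of Dennd4c, and holds 3 WGATAR. Rps6 was still the gene with the nearest TSS. The OS of Rps7 (number 4277, 320 bp, 2 WGATAR) lay 5196 bp beyond the gene body, and the TSS of Colec11, which encodes a secreted collectin, was 2361 bp from it.

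The retrocopies added 2 common OS. That of Rpl30-ps6 (number 1998, 2 WGATAR) lay 5654 bp from its start and that of Rpl27a-ps1 (number 3003, 1 WGATAR) 4128 bp from its start. No other protein-coding TSS was nearer to either. MACS2 alone gave a peak 266 bp upstream of Rpl21-ps7 (number 4062, 533 bp, 1 WGATAR), one 9738 bp from Rpl7a-ps10 (number 5110, no WGATAR) and another 2932 bp from Rpl30-ps6 (number 2908). Whether a start annotated for such a copy is used in liver cannot be read from these files.

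The limit of 10 kb left Rplp0 (9438 bp) and Rpl7 (9015 bp) just inside and Rplp2 (10151 bp) and Rpl21-ps7 (10622 bp) just outside for the common list. For the MACS2 list Rplp0 (9494 bp) was just inside and Rps18 (11485 bp) just outside.

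The nearest common OS was more than 100 kb from the TSS in 72 of the 138 members (52.2%), compared with 62.1% of all protein-coding genes. The count was 33 of the 76 core genes (43.4%) and 32 of the 53 retrocopies (60.4%). An OS lay within 50 kb of the TSS in 40 of the 138 members and in 24.5% of all protein-coding genes. Of the members without a peak in their window, Rpl6 and Rps19bp1 were among the closest by distance from the TSS. The TSS of Rpl6 was 12987 bp from an OS, and that of Rps19bp1, whose product binds Rps19 and is no ribosomal protein, 15491 bp. At the other end stood Rps27a-ps2 with 2830860 bp, the testis paralogue Rpl10l with 3473518 bp, and Rpl39, a small protein of the exit tunnel encoded on the X chromosome, with 4787188 bp. MACS2 peaks lay nearer to these 3, at 124066, 2780503 and 1129970 bp.

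The distance from TSS to nearest OS needs no window. Its median was 70738 bp in large subunit genes, 116610 bp in small subunit genes, 126703 bp in retrocopies and 325257 bp in paralogues. All protein-coding genes had a median of 168086 bp and those with a CpG-rich promoter 113717 bp. By this measure small subunit genes and retrocopies were nearer to an OS than all protein-coding genes at the median, although fewer of them had one within 10 kb. The quartiles were wide, from 10151 to 179730 bp for the large subunit and from 34234 to 355483 bp for the small subunit, so that the groups overlapped over most of their range.

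**Figure D3:**
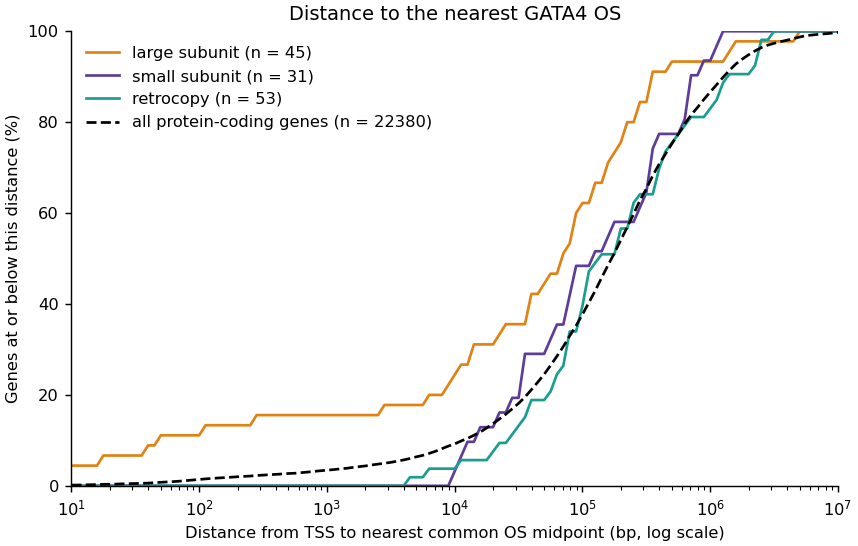
Cumulative percent of genes whose TSS lies at or below a given distance from the nearest common OS midpoint (bp, log scale), for large subunit genes, small subunit genes, retrocopies and all protein-coding genes (dashed). The large subunit curve starts near the TSS with 15.6% of genes within 1 kb, while the small subunit curve leaves 0 only near 10 kb.

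Sites at ribosomal protein genes were compared with all OS. Of the 17 OS at members, 14 carried WGATAR (82.4%, with 59.0 to 93.8% as the 95% interval by Wilson's method), while the share over all 4409 OS was 82.9%. At the 7 promoter OS it was present in 5 (71.4%, interval 35.9 to 91.8%), beside 74.1% of the 730 OS within 1 kb of any protein-coding TSS, and in 9 of the 10 others. In the 500 bp around each midpoint the share was 82.4% at members and 89.6% over all OS. In the MACS2 list 21 of 27 peaks at members carried WGATAR (77.8%, interval 59.2 to 89.4%). Over all 5867 MACS2 peaks the share was 90.3%, which lies outside that interval. At member promoters 9 of 12 MACS2 peaks carried it, beside 79.1% of those within 1 kb of any protein-coding TSS. These intervals treat sites as separate draws and cover the counting only. They are wide, and the 17 and 7 OS are themselves part of the wider sets. That the intervals of the common list include the values of those sets therefore does not show that the sites are alike.

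The promoter OS were narrow. Their median width was 100 bp (80 to 320 bp), and 4 of 7 were at most 100 bp wide, compared with 8.22% of the OS within 1 kb of a protein-coding TSS and 8.23% of all OS. The median over all OS was 190 bp. The median number of the promoter OS was 3009 of 4409, and the lowest was 1398. As what the numbering follows is not stated, list numbers do not measure strength. The MACS2 peaks at member promoters had a median number of 4256 beside 2934 over the whole list, and a median width of 848 bp beside 763 bp for MACS2 peaks within 1 kb of a protein-coding TSS. At the 7 promoters with a common OS the median MACS2 width was 814 bp (642 to 1248 bp).

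**Figure D4:**
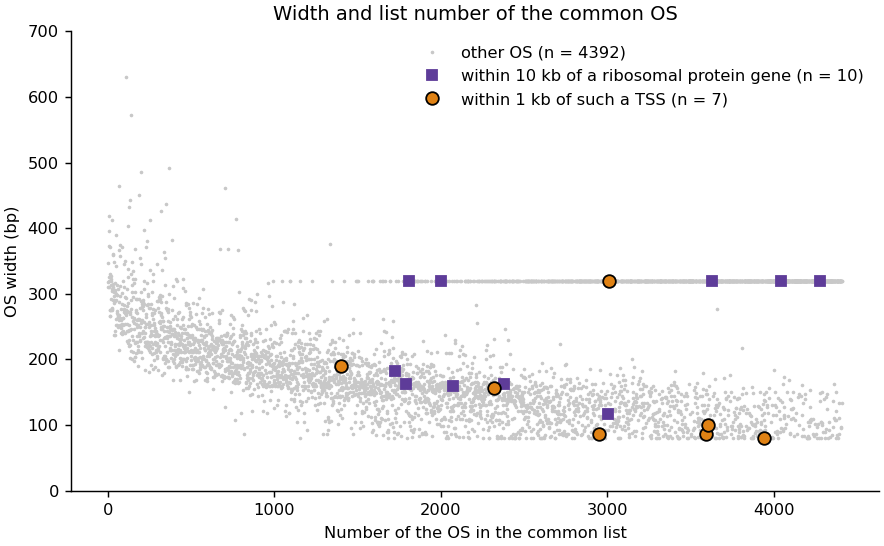
Width of each common OS in bp against its number in the list. Grey points are the 4392 OS away from ribosomal protein genes, purple squares the 10 within 10 kb of such a gene, and orange circles the 7 within 1 kb of the TSS of one. The line of points at 320 bp is a fixed width shared by 1127 OS, among them that of Rpl3, and 4 of the 7 promoter OS lie at or below 100 bp.

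The promoters of the core genes were searched for motifs known from housekeeping genes. In the 300 bases from 250 before to 50 after the TSS, CCGGAAG was present in 34.2% of core genes and 10.8% of all protein-coding genes, and in 35.1% of mitochondrial ribosomal protein, 37.0% of RNA polymerase and 13 of 42 proteasome genes. TGACGT was present in 19.7% and 8.67%, and AAGATGG, the core of the YY1 motif, in 10.5% and 6.81%, with 19.5% in mitochondrial ribosomal protein and 21.4% in proteasome genes. The GC box GGGCGG was present in 52.6% of core genes, 44.8% of all and 77.6% of those with a CpG-rich promoter. Among genes with a CpG-rich promoter, CCGGAAG was present in 17.8%, TGACGT in 12.8% and AAGATGG in 6.79%. Both strands were searched for these 4 motifs. TATAAA or TATATA on the strand of the gene, between 35 and 19 bases upstream of the TSS, was found in 5.26% of core genes and 2.78% of all. A run of at least 5 pyrimidines touching the bases from 5 before to 6 after the TSS was present in 43.4% of the core genes, 61.3% of the small subunit and 31.1% of the large subunit, in 43.3% of translation factor genes and in 31.3% of all genes. A CpG-rich promoter was present in 76.3% of core genes and 39.7% of all, and in 0 of the 53 retrocopies.

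WGATAR itself was less frequent at these promoters than over all protein-coding genes, and more frequent than at CpG-rich promoters. It was present in the 300 bases of 18 of the 76 core genes (23.7%), 26.9% of all protein-coding genes and 12.3% of those with a CpG-rich promoter. In the 1000 bases around the TSS it was present in 34 core genes (44.7%), 62.6% of all and 41.7% of those with a CpG-rich promoter. Of the 7 core genes with a promoter OS, all 7 had a motif in the 1000 bases and 6 in the 300 bases. Of the 69 without one, 27 (39.1%) and 12 (17.4%) did. The 4 core genes with only a MACS2 peak at the promoter had a motif in 2 and 0 cases. Among the 7 genes with a promoter OS, 5 had a motif in the OS itself. At Rpl10a and Rpl13 no motif lay in the OS or in the 500 bp around its midpoint.

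Rpl35, picked after its value was seen, had the most matches of all core promoters, 17 in the 300 bases. They lie 97 to 182 bp upstream, in a stretch that holds a run of 17 GATA repeats, within an exon of the neighbour Wdr38. Matches within the run overlap each other, and the stretch is longer than the run. No peak lay in its window and the nearest common OS was 471621 bp from its TSS.

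Other features of the 7 genes with a promoter OS were set beside those of the 69 other core genes. Median GC content around the TSS was 58.5% against 57.7% in the 69 others, and 5 of 7 and 53 of 69 were CpG-rich. CCGGAAG was present in 2 of 7 and 24 of 69, TGACGT in 2 of 7 and 13 of 69, and GGGCGG in 6 of 7 and 34 of 69. Small nucleolar RNAs, which guide the modification of ribosomal RNA and often lie in introns of these genes, were hosted by 30 of the 76 core genes, 58 in all. Of the 7 genes, 4 hosted 9.

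Ribosomal protein genes have many processed copies in the genome, so that reads from them can be hard to place. As a measure, the share of 48-base words that occur once in mm9 was computed. In the exons of core genes the median was 53.2%, and it was 0.00% in Rps27, compared with 99.9% for mitochondrial ribosomal protein genes. In the 500 bp to each side of the TSS, however, the median was 98.8% for core genes and 100% for all protein-coding genes, a window that also takes in upstream and intron sequence. The range over the 7 genes with a promoter OS was 93.1 to 100%. In their exons the median was 18.5% (7.46 to 88.8%), compared with 54.2% in the 69 core genes without one, and the part this has in the result was not tested.

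For the retrocopies the median around the TSS was 71.2%, and 46 of 53 had less than 90% unique words there, compared with 5 of 45 large subunit and 6 of 31 small subunit genes. Rps29 had the lowest value of the core genes, 63.6%. The part that read placement has in the missing OS of retrocopies was not tested. In the core genes without a promoter OS the median around the TSS was 98.2%, close to that of the bound ones, whose median was 100%.

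**Figure D5:**
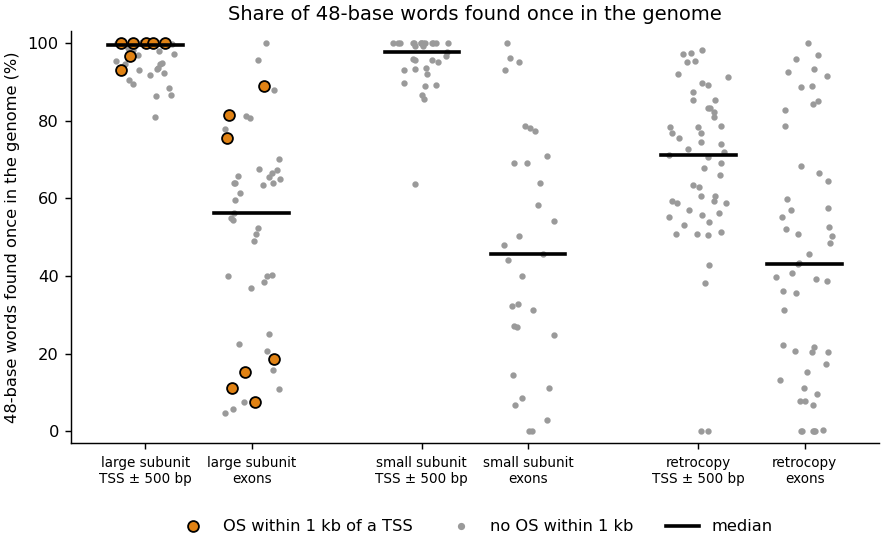
Percent of 48-base words found once in the genome, within 500 bp of the TSS and in exons, for each large subunit gene, small subunit gene and retrocopy, with the median as a bar and the 7 genes with an OS within 1 kb of a TSS in orange. Medians around the TSS were 99.4, 97.6 and 71.2%, and those of exons 56.3, 45.6 and 43.0%.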

How the data were processed

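GATA4 ChIP-seq peaks of 1 ChIP sample were used as deposited; the input entered through the peak calls of the authors. The authors aligned reads with Bowtie 0.12.7 to mm9 and called peaks with SPP and MACS2 2.0.10 on replicates and their merged reads, keeping ranks reproducible between replicates. The deposited score is 1000 for every peak and was not used as a strength. Read depth per site is not given in the sources used here.

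Peak midpoints were placed against GENCODE M1 on mm9, counting genes by identifier. Promoter features used the TSS of the longest protein-coding transcript, with CpG-rich meaning an observed to expected CpG ratio of at least 0.6 and at least 55% GC in 1000 bp. Lists of mitochondrial ribosomal proteins, translation factors, proteasome subunits, respiratory chain and RNA polymerases were taken by symbol. Named genes were all members with a peak, their nearest genes, the 3 nearest and 3 farthest members without one, and up to 3 per list; some genes that this rule names are not reported here. Members and lists were chosen with earlier results of these data known. No tests were run, since there are no replicate values. Overlap code was tested on simulated intervals. Alternatives covered window, peak list, leading part of a list, TSS choice and subunit. Python 3.11.15, pandas 2.3.3 and pysam 0.24.0 were used.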

Additional observations from a re-analysis of the deposited data

How the results depend on the processing

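The counts of genes depended mainly on the window. Members with a common OS, 16 within 10 kb, numbered 3 in the gene body alone, 10 within 5 kb and 40 within 50 kb, and 6 with the leading 50% of the list. For MACS2 the 24 members became 5 in the body alone, 48 within 50 kb and 11 with the leading 50%. The 17 common OS became 3, 10 and 57 in these windows and 6 with the leading 50%. The 7 members with an OS within 1 kb of a TSS became 14 within 10 kb of a TSS, where the share of all protein-coding genes was 9.23%, and 12 with the MACS2 list. The 11 OS nearest to the member's own TSS became 17 of 27 peaks with that list. Counted alone, which was chosen after seeing the data, the small subunit had 2 members with a common OS and 5 with a MACS2 peak, and the large subunit 15 with a MACS2 peak. The other 32 of 49 alternatives stayed within 1.5 times the count or within the interval of the share. No paired analysis was possible because the files hold 1 ChIP sample with no replicate values, which also left no replicate to leave out. Depth limits what a missing peak means: a gene without a peak may hold occupancy below the callers' thresholds.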

Other observations

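Fau also encodes a ribosomal protein, fused to a ubiquitin-like sequence, but its symbol does not match the rule. Fau had 1 common OS in its window, 3273 bp from its TSS, and 1 MACS2 peak.

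The 7 large subunit genes with a promoter OS were spread unevenly over chromosomes. Chromosome 15 holds 4 of the 76 core genes and 3 of these had a promoter OS, Rpl3, Rpl8 and Rpl37. Chromosome 7 holds 14 core genes and none had a common OS in the body or within 10 kb. For Rplp2 on this chromosome an OS lay just outside, at 10151 bp. In the MACS2 list, Rplp2 and Rps19 of chromosome 7 did have peaks in their windows. The shares over all protein-coding genes of these chromosomes were not counted. This split was noticed in the data and was not tested.

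In the SPP list, which entered only as an alternative, 17 members had a peak in the window. The additional one was Rpl29-ps2, with a peak (number 3517, 320 bp, 2 WGATAR) 4921 bp from its start and 85 bp from the TSS of Akr1e1, an aldo-keto reductase gene.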
